A study of Sus scrofa with 6 samples.

Results

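The mitochondrial ribosomal protein genes of porcine muscle were described across pigs with high and low intramuscular fat (IMF). Members were chosen by their symbol, MRPL or MRPS followed by a number, and by a mean of at least 0.1 FPKM, a read level normalised for transcript length and library size, over the 6 pigs after the transcripts of each gene were summed. The symbol was found for 68 genes, and all 68 passed the minimum, out of 31908 annotated genes. The tissue was longissimus dorsi (LD), a long back muscle, of Laiwu pigs, an indigenous Chinese breed. The S-H group held 3 pigs with high IMF content (LW63, LW70 and LW119) and the S-L group held 3 pigs with low IMF content (LW82, LW88 and LW90). All 6 pigs were castrated males, no treatment or genetic change is named, and an age at slaughter is not given in the sources used here. Each pig gave 1 ribosomal RNA-depleted, strand-specific library. Marker genes of skeletal muscle fibres were the most abundant of the marker lists in each of the 6 libraries, with summed levels between 22930 and 35099 FPKM.

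Mitochondria carry their own ribosome, the mitoribosome, which translates the few messenger RNAs of the mitochondrial genome into subunits of the respiratory chain and of ATP synthase. Its ribosomal RNAs are encoded by the mitochondrial genome, whereas all of its proteins are encoded in the nucleus, translated in the cytosol and imported. The small subunit reads the messenger RNA, and the large subunit forms the peptide bond and releases the new chain at the inner membrane. Some of the proteins descend from bacterial ribosomal proteins, and others were added in the mitochondrial lineage. Skeletal muscle needs this ribosome to renew its respiratory chain.

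Of the 68 genes, 24 encode proteins of the small subunit and 43 encode proteins of the large subunit. Symbols and places do not always match. MRPS30 (protein name mL65) and MRPS18A (mL66) carry the letter of the small subunit but are proteins of the large one, and they were counted there. MRPS36 belongs to neither subunit, because its product, KGD4, is a part of the 2-oxoglutarate dehydrogenase complex of the citric acid cycle. By descent, 39 members are of bacterial ancestry and 28 are of mitochondrial ancestry. In the coordinates of the Sscrofa11.1 assembly, 66 members lie on 17 numbered chromosomes, with at most 8 on a single one, chromosome 12, and MRPL41 and MRPS2 lie on an unplaced scaffold. The closest neighbours are MRPS11 (chr1:191309198-191321648) and MRPL46 (chr1:191321999-191331319), with 351 bp between them. Their levels were 24.4 and 15.6 FPKM over the 6 pigs. The annotated span of 34 members overlaps that of another gene, and the span of MRPL12 overlaps 13. The table gives no strand, so reads could not be assigned between such genes here.

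Every member was above 0 in every pig. The median level was 11.8 FPKM, against 3.67 FPKM over the 12741 genes tested. The levels ran from 1.44 to 110 FPKM, a range of 76.4-fold, with 27 members between 1 and 10 FPKM, 33 between 10 and 50 FPKM and 8 above 50 FPKM. The 6 most abundant members held 33.2% of the summed level of the 68. The median level was 9.85 FPKM for the small subunit and 12.7 FPKM for the large subunit, and 14.2 FPKM for members of bacterial and 10.1 FPKM for members of mitochondrial ancestry.

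The most abundant member was MRPL33, which encodes bL33m, a small protein of the large subunit. Its level was 109, 154 and 102 FPKM in LW63, LW70 and LW119 of S-H, and 97.8, 94.1 and 104 FPKM in LW82, LW88 and LW90 of S-L. Values are given in this order of pigs from here on. MRPL51 (mL51), also of the large subunit, was at 105, 154 and 70.6 FPKM in the S-H pigs and at 90.7, 97.3 and 85.8 FPKM in the S-L pigs. In both genes LW70 was the highest pig and the groups overlapped. MRPL57 (mL63) followed with 83.1 ± 20.2 FPKM in S-H and 72.4 ± 9.14 FPKM in S-L (SD, n = 3). MRPS26 (mS26), the most abundant member of the small subunit, was at 82.6 ± 8.52 FPKM in S-H and 64.7 ± 13.03 FPKM in S-L (SD, n = 3). MRPL57 and MRPS26 overlapped between the groups as well. All levels are per length of transcript. For members whose span overlaps another gene, reads could not be assigned between the genes, so their place in the order is less sure.

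At the low end stood MRPL58, also known as ICT1, a peptidyl-tRNA hydrolase that was taken up into the large subunit and rescues stalled mitoribosomes. Its level was 1.06, 1.85 and 2.04 FPKM in the S-H pigs and 1.15, 1.69 and 0.850 FPKM in the S-L pigs. MRPL36 (bL36m) was the next lowest with 1.78 ± 0.648 FPKM in S-H and 1.81 ± 0.407 FPKM in S-L (SD, n = 3). The order above them was MRPS14 with 2.64 FPKM, MRPS33 with 3.09 FPKM, MRPS18C with 3.54 FPKM and MRPS30 with 3.68 FPKM as means of the 6 pigs. Neighbours in this order did not separate beyond their spread, and the values of MRPS33, MRPS18C and MRPS30 overlapped between pigs. The order of the 68 members was much alike in any 2 pigs. Over the 15 pairs of pigs, Spearman's rho across the members lay between 0.918 and 0.967 with a median of 0.943. These coefficients are a description across genes of the same annotation, and the genes are not independent replicates.

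**Figure D1:**
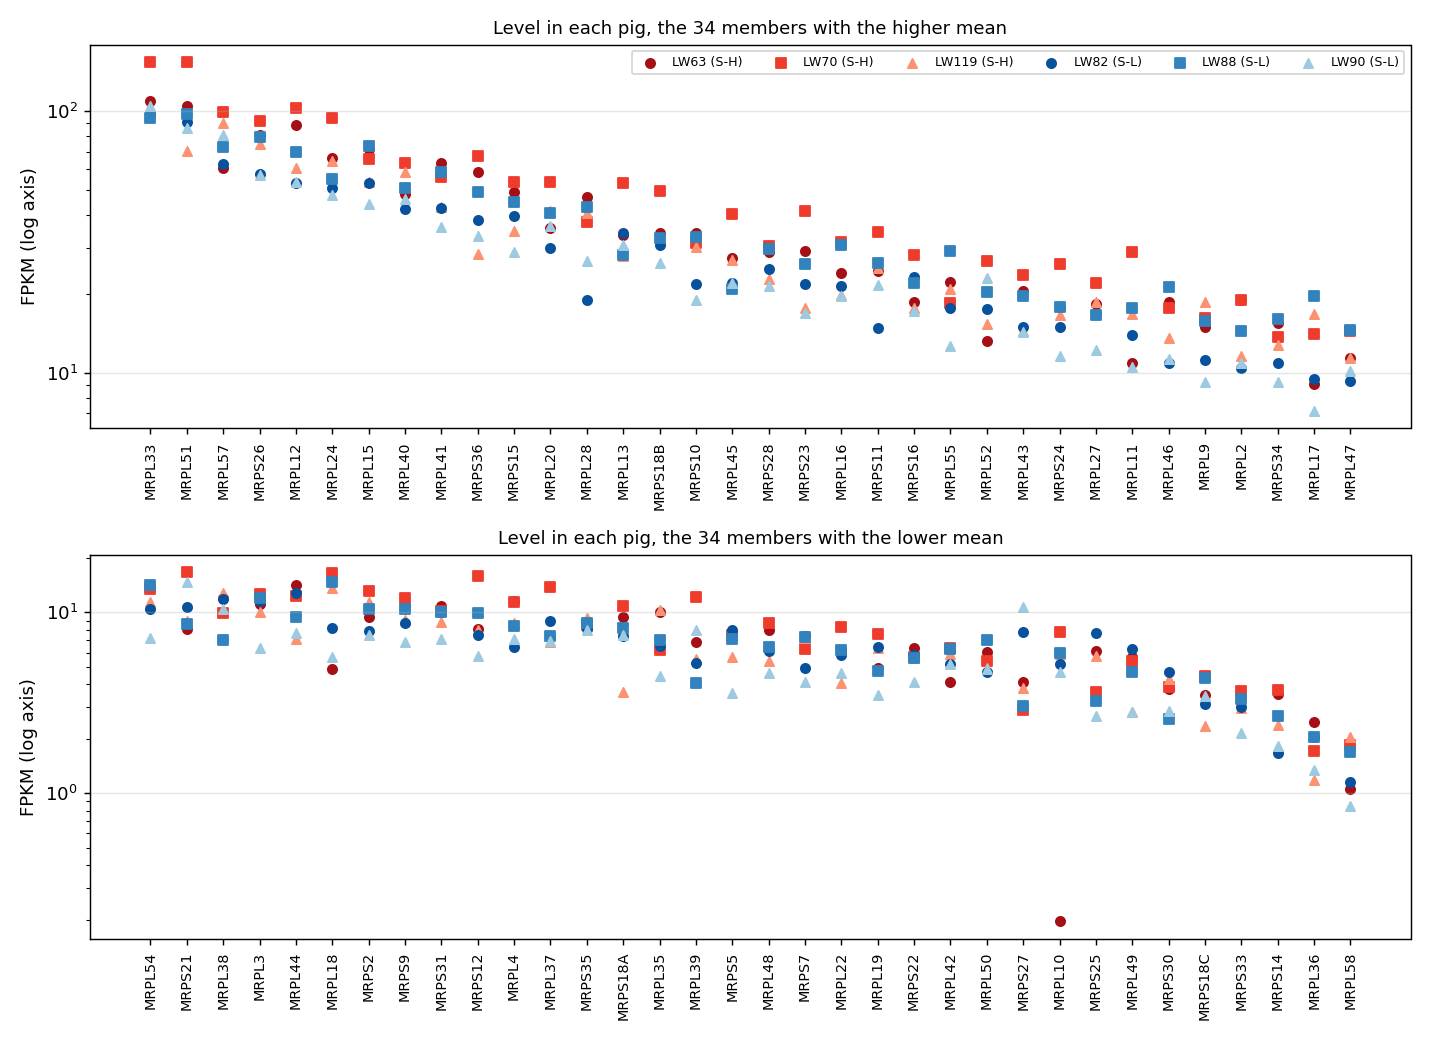
Level of each of the 68 members in each pig, in FPKM on a log axis, ordered by the mean over the 6 pigs and split into the 34 members with the higher mean (top) and the 34 with the lower mean (bottom). Red symbols are the 3 S-H pigs and blue symbols the 3 S-L pigs, each symbol being 1 pig. The symbols of the groups overlap for all but 4 members, and LW70 (red square) is the highest pig for 41 of 68.

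The first comparison asked which members differed between the S-H and S-L groups. No member passed the thresholds that the study used, an unadjusted p below 0.01 together with a log2 fold change of 1 or more in either direction, in limma on log2(FPKM + 0.1). The study applied these thresholds with edgeR, a different test, so its calls and those made here with limma are not alike. Over all 12741 genes tested, 173 passed (1.36%). No member reached an unadjusted p below 0.05 either in limma, where 8.15% of all genes did. The lowest limma p of a member was 0.0536, and the Benjamini-Hochberg adjusted p values of the members, over all genes tested, lay between 0.609 and 0.998. None of the 12741 genes tested reached an adjusted p below 0.05 in limma, while 1039 had an unadjusted p below 0.05. Limma with a variance trend and limma without one were the only tests run across genes, and without the trend 0 members passed as well. Fold changes are on the log2(FPKM + 0.1) scale, S-H minus S-L, throughout, and this scale understates the change of genes of low level. In bulk muscle, fewer cells of a type and less RNA per cell cannot be told apart.

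Members lay slightly higher in S-H, by about as much as genes in general. The median log2 fold change of the 68 members was 0.26, and that of all genes tested was 0.21. A positive fold change was found for 59 of 68 members (86.8%), against 74.1% of all genes, and with median-ratio size factors, which centre the libraries on each other, for 44 of 68 (64.7%) against 50.9%. With these size factors the medians were 0.043 for the members and 0.0064 for all genes. Relative to the median of all genes, 44 members lay above it as deposited and 42 with size factors. In the small subunit 21 of 24 members had a positive fold change with a median of 0.29, and with size factors 16 of 24. In the large subunit 37 of 43 had a positive fold change with a median of 0.26, and with size factors 27 of 43.

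The differences were small for most members and had somewhat smaller errors than those of a typical gene. A log2 fold change of 0.5 or more in either direction was found for 8 of 68 members (11.8%), against 24.9% of all genes, and only MRPL10 went beyond 1. The 95% interval of the log2 fold change lay between -1 and 1 for 45 of 68 members (66.2%), against 47.1% of all genes and 59.0% of the 8812 genes within the level range of the members. The median standard error was 0.28 for the members, 0.32 for all genes and 0.29 for the genes within their level range. For these 45 members a log2 difference of 1 in either direction lay outside the interval, and for the remaining 23 it lay inside on at least 1 side.

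**Figure D2:**
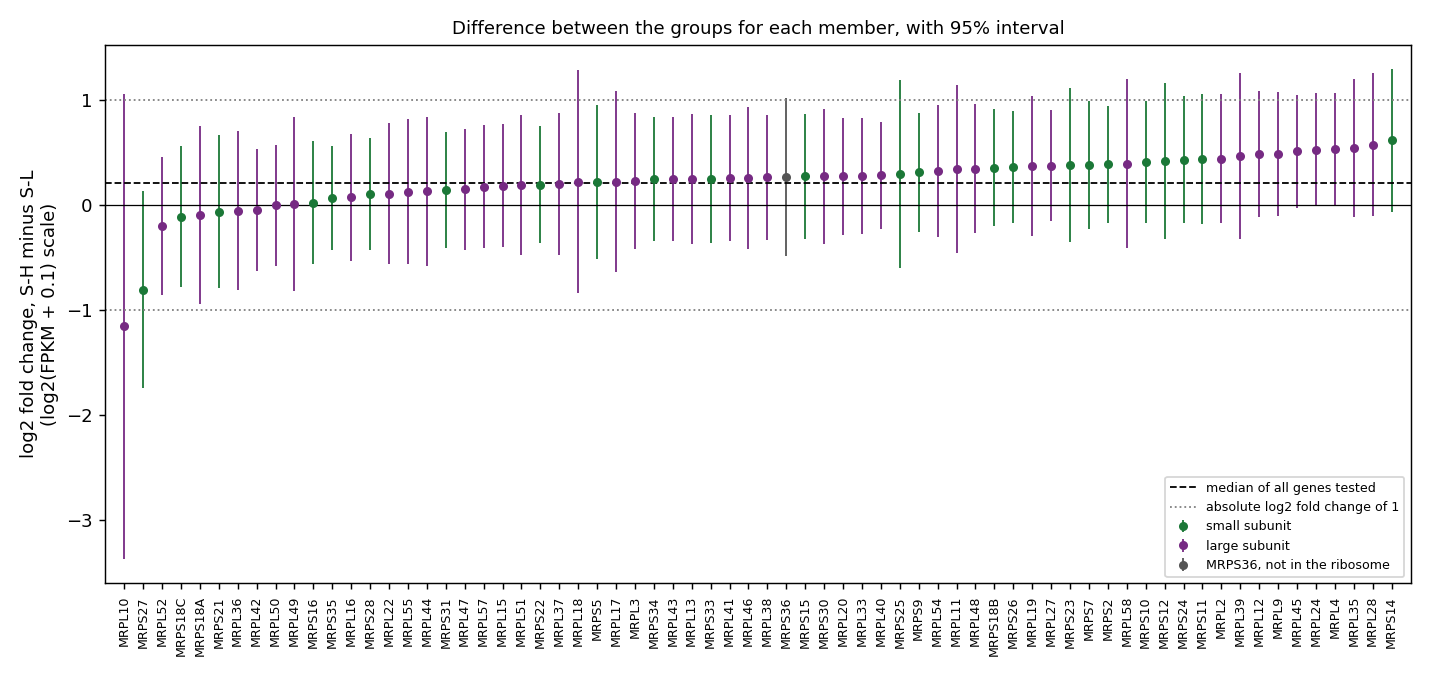
Log2 fold change (S-H minus S-L, on the log2(FPKM + 0.1) scale) of each of the 68 members with its 95% interval from limma, ordered by size and coloured by subunit. The dashed line is the median of all genes tested, 0.21, and the dotted lines mark an absolute log2 fold change of 1. Positive values were found for 59 members as deposited and for 44 with size factors, and the interval of every member includes 0.

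The groups did not overlap in 4 members, each with its S-H pigs on top. This is 5.88% of the members, while 14.8% of all genes had no overlap between the groups in either direction and 13.1% had every S-H pig above. With size factors it was 0 members and 12.5% of all genes. All 4 encode proteins of the large subunit. MRPL24 (chr4:93353110-93358342) encodes uL24m, a protein near the exit of the peptide tunnel, and was at 66.4, 94.0 and 64.4 FPKM in S-H and at 50.6, 55.2 and 47.8 FPKM in S-L. The S-H pigs were all above the highest S-L pig, LW88, and LW70 stood clear of both others. Its log2 fold change of 0.53 (SE 0.24) had the lowest p of the members in limma (adjusted p = 0.609), and was 0.31 with size factors. MRPL4 encodes uL4m, which lines the peptide tunnel, and was at 11.6, 11.5 and 8.77 FPKM in S-H and at 6.43, 8.38 and 7.09 FPKM in S-L. The gap between LW119 and LW88 was narrow.

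MRPL45 encodes mL45, the protein that holds the mitoribosome at the inner membrane. It was at 27.5, 40.3 and 27.0 FPKM in S-H, and the S-L pigs lay close together at 22.1, 21.0 and 22.03 FPKM. The log2 fold change was 0.53 (SE 0.24) for MRPL4 and 0.52 (SE 0.24) for MRPL45, with adjusted p values of 0.609 and 0.615 in limma. The fourth, MRPL27, was named after its values were seen, to complete the count. It encodes bL27m, whose bacterial relative reaches towards the peptidyl transferase centre, and was at 18.3, 22.01 and 18.7 FPKM in S-H and at 16.8, 16.7 and 12.3 FPKM in S-L, with a log2 fold change of 0.38 (SE 0.24, adjusted p = 0.661). None of the 4 passed the test.

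The other members with the largest positive fold changes overlapped between the groups. MRPS14 encodes uS14m of the small subunit and had the largest value of the 68, a log2 fold change of 0.62 (SE 0.30, adjusted p = 0.618). Its level was 3.54, 3.71 and 2.37 FPKM in S-H and 1.67, 2.69 and 1.83 FPKM in S-L, so that LW119 lay below LW88. MRPL28 (bL28m) was at 47.1, 37.7 and 40.9 FPKM in S-H and at 18.9, 43.0 and 26.8 FPKM in S-L. Here LW88 was within the S-H range and the other S-L pigs were below it. The log2 fold change of MRPL28 was 0.58 (SE 0.31, adjusted p = 0.627). MRPL35 (bL35m) was at 10.1, 6.17 and 10.4 FPKM in S-H and at 6.51, 7.04 and 4.47 FPKM in S-L, with LW70 below 2 of the S-L pigs and a log2 fold change of 0.55 (SE 0.30, adjusted p = 0.628).

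At the negative end, 2 genes stood apart and each rested on 1 or 2 pigs. MRPL10 (chr12:24071585-24083057) encodes uL10m, the base of the stalk to which bL12m binds. Its level was 0.196, 7.78 and 5.90 FPKM in S-H and 5.17, 5.99 and 4.70 FPKM in S-L. LW63 was thus near 0, whereas LW70 was the highest of the 6 pigs. The log2 fold change was -1.15 with a standard error of 0.99 (adjusted p = 0.736), and without LW63 it was 0.36. The gap lay in a single transcript, MRPL10-203, which was at 0.0242 FPKM in LW63 and between 4.69 and 7.77 FPKM in the other pigs. MRPL12, whose product bL12m forms the stalk on MRPL10 and draws translation factors to the ribosome, showed no such gap in LW63. It was at 88.1, 103 and 60.5 FPKM in S-H and at 53.1, 69.9 and 53.8 FPKM in S-L, with a log2 fold change of 0.48 (SE 0.27, adjusted p = 0.636).

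MRPS27 (chr16:48482052-48642576) encodes mS27, a pentatricopeptide repeat protein of the small subunit. Its level was 4.14, 2.90 and 3.81 FPKM in S-H and 7.79, 3.03 and 10.7 FPKM in S-L. LW82 and LW90 were above all S-H pigs and LW88 was among them. The log2 fold change was -0.81 (SE 0.42, adjusted p = 0.621), and without LW88 it was -1.33, past both thresholds. Much of the excess came from the transcript MRPS27-205, which was at 6.11 FPKM in LW90, 1.79 FPKM in LW82 and 0.498 FPKM in LW88, and at 0.900 FPKM in LW63 and listed at 0 in LW70 and LW119. The transcript with the highest mean, MRPS27-201, was at 1.86, 2.41 and 1.97 FPKM in S-H and at 1.78, 1.18 and 1.08 FPKM in S-L, and by this transcript alone the log2 fold change was 0.61. The remaining 7 negative values were each smaller than their standard error, which lay between 0.26 and 0.38. They were -0.20 for MRPL52, -0.11 for MRPS18C, -0.092 for MRPS18A, -0.060 for MRPS21, -0.052 for MRPL36, -0.043 for MRPL42 and -0.0022 for MRPL50. Those of MRPS18C, MRPS18A, MRPS21 and MRPL36 were positive when libraries were scaled to the same sum (TPM).

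Members were also grouped by their place in the ribosome. The 6 proteins listed for the central protuberance, which contacts the small subunit, all had positive fold changes. Their median was 0.27 as deposited and 0.055 with size factors, where again 6 of 6 were positive. The list left out MRPL55 (bL31m) and GADD45GIP1, at 0.13 and 0.20 as deposited and -0.092 and -0.016 with size factors. The 6 listed around the tunnel exit were all positive as deposited with a median of 0.19, and 3 of 6 were positive with size factors. The 3 listed for the stalk, MRPL10, MRPL11 and MRPL12, had a median of 0.34. With MRPL10 as the negative one, 2 of 3 were positive on either scale. LW70 was the highest pig for all 3 of these listed genes, and other members near the stalk were not looked at. These groups are too small for more than a count, and none of their members passed the test.

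The 3 genes of the MRPS18 family descend from a single bacterial protein, and their products sit at different places. MRPS18B (mS40) was at 34.3, 49.7 and 32.7 FPKM in S-H and at 30.7, 32.8 and 26.2 FPKM in S-L. MRPS18A was at 9.49, 10.9 and 3.64 FPKM in S-H and at 7.45, 8.23 and 7.47 FPKM in S-L. MRPS18C (bS18m) was at 3.50, 4.45 and 2.37 FPKM in S-H and at 3.11, 4.37 and 3.45 FPKM in S-L. MRPS18B was the highest and MRPS18C the lowest of the 3 in every pig. LW119 was the lowest pig for MRPS18A, well below any other pig, and also for MRPS18C. MRPS30, whose product mL65 is the other large-subunit protein with a small-subunit symbol, was at 3.98 ± 0.262 FPKM in S-H and 3.38 ± 1.16 FPKM in S-L (SD, n = 3). MRPS36, the member outside the ribosome, was at 58.5, 67.05 and 28.3 FPKM in S-H and at 38.5, 49.0 and 33.4 FPKM in S-L, again with LW70 highest and LW119 lowest.

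As deposited, the range of the members' summed level among the S-H pigs was wider than the gap between the group means. The SD within S-H was about as large as that gap. Summed over the 68 members, the level was 1570, 1964 and 1396 FPKM in LW63, LW70 and LW119, and 1283, 1538 and 1208 FPKM in LW82, LW88 and LW90. LW70 stood above all other pigs and LW119 lay below LW88. The means were 1644 ± 291 FPKM in S-H and 1343 ± 173 FPKM in S-L (SD, n = 3), and with size factors 1543 ± 427 and 1448 ± 164. The ratio of the summed large subunit to the summed small subunit was nearly constant, between 2.499 and 2.77 in the 6 pigs, with means of 2.61 ± 0.0892 in S-H and 2.59 ± 0.150 in S-L (SD, n = 3).

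LW70 was the highest pig for 41 of 68 members (60.3%), while it was the highest for 14.98% of all genes tested. With size factors it was the highest for 44 of 68 (64.7%), against 19.3% of all genes. The median deviation of the members from their mean over the 6 pigs, on the log2 scale, was 0.36 in LW70, where that of all genes was -0.049. LW90 was the lowest pig for 35 members (51.5%), but also for 40.9% of all genes, and its median deviation was -0.36 for the members and -0.29 for all genes. With size factors LW119 took that place, being the lowest for 28 members (41.2%) against 19.2% of all genes. In LW119 the members' median deviation was -0.046 when that of all genes was 0.18. Thus 2 pigs of the same group, LW70 and LW119, lay on opposite sides of the other genes.

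**Figure D3:**
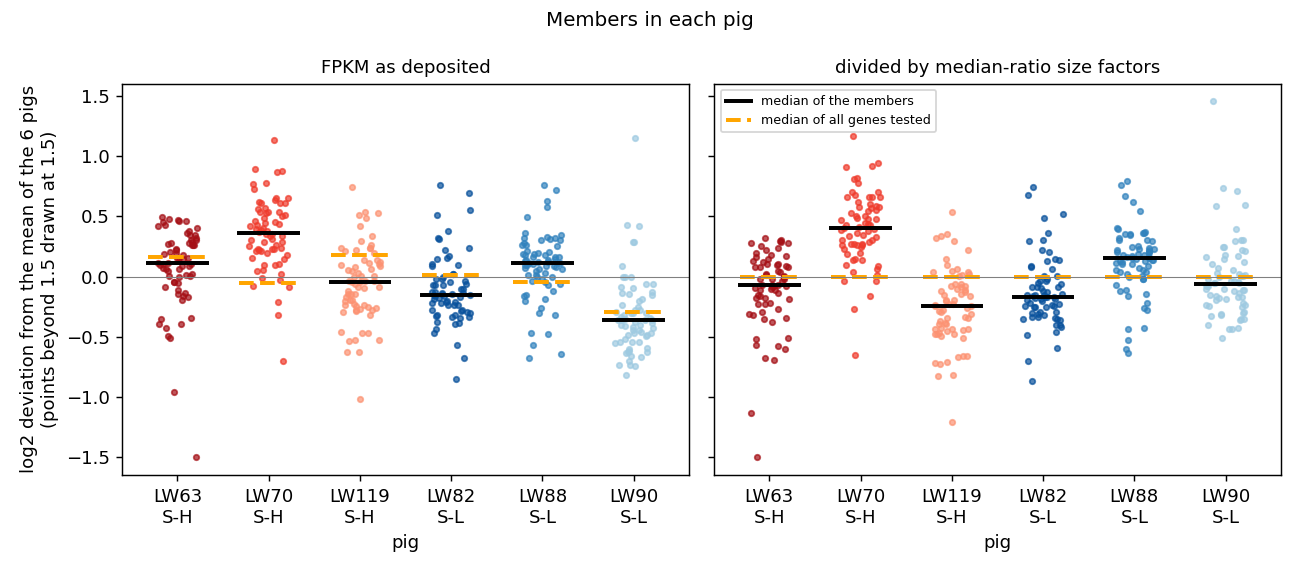
Deviation of each member from its mean over the 6 pigs, on the log2 scale, with FPKM as deposited (left) and divided by size factors (right). Each point is 1 member, the black line is the median of the 68 members and the dashed line the median of all genes tested. In LW70 the members' median is 0.36 as deposited and 0.41 with size factors, above the dashed line in both panels, and in LW119 it is -0.046 and -0.24, below it.

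Where the members stood relative to all genes depended on single pigs. Without LW70 the median log2 fold change of the members was 0.16 while that of all genes was 0.27, and 20 members instead of 44 lay above the median of all genes. Without LW119 the members' median was 0.37 against 0.19, with 64 of 68 positive and 8 at a limma p below 0.05 (8.63% of all genes). Without LW90 it was 0.15 against 0.12, with 48 of 68 positive. Without LW88 it was 0.39 against 0.25, with 6 members at a limma p below 0.05 (8.41% of all genes) and 1, MRPS27, past both thresholds (1.69%). Over the 2278 pairs of members, the median Pearson r across the 6 pigs was 0.49 and 82.4% of the coefficients were above 0. With size factors the values were 0.50 and 82.97%. These coefficients share the same 6 libraries and are given as a description.

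The members were represented by 226 transcripts, of which 161 are reference transcripts and 65 were assembled from these reads. A single transcript was listed for 16 members and several for 52, with at most 12. Of the 226 transcripts, 172 had a mean of at least 0.1 FPKM and were tested, and 1 passed both thresholds in limma (0.581%), against 503 of 40336 transcripts in all (1.25%). At an unadjusted p below 0.05 in limma there were 7, and 5.57% of all transcripts tested reached it. None of the 172 reached an adjusted p below 0.05 in limma, which 34 transcripts of the table did (0.0843%).

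The transcript that passed was MRPL54-201 (chr2:74925070-74928167), the reference transcript of MRPL54, which encodes mL54 of the large subunit. It was at 0.799, 0.844 and 0.503 FPKM in S-H and at 0.0041, 0.0101 and 0.0058 FPKM in S-L. The groups were thus far apart, yet all values were low. The log2 fold change was 2.91 (SE 0.45, adjusted p = 0.191), and it did not pass with a pseudocount of 1 and was not tested with a minimum mean of 1 FPKM. Nearly all of the gene's level lay in an assembled transcript, TCONS_00158208, whose span differs from that of MRPL54-201 by 21 bp at the start and 23 bp at the end. It was at 12.97, 12.6 and 10.9 FPKM in S-H and at 10.5, 14.2 and 7.23 FPKM in S-L, and held 96.9% of the gene's level. The gene as a whole had a log2 fold change of 0.32 (SE 0.28, adjusted p = 0.739), so the transcript that rose carried little of it.

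In other named members the division between transcripts differed among pigs. In MRPL28, the transcript MRPL28-201 was listed at 0 in LW119 and lay between 7.05 and 13.5 FPKM in the other pigs, and MRPL28-202 was at 12.4 FPKM in LW119 and at most 0.116 FPKM elsewhere. In MRPS14, the share of MRPS14-202 was between 77.7% and 97.9% in S-H and was 34.4%, 95.5% and 55.4% in LW82, LW88 and LW90. How reads shared between overlapping transcripts are divided is an estimate of the assembler, and its part in these shifts was not tested.

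**Figure D4:**
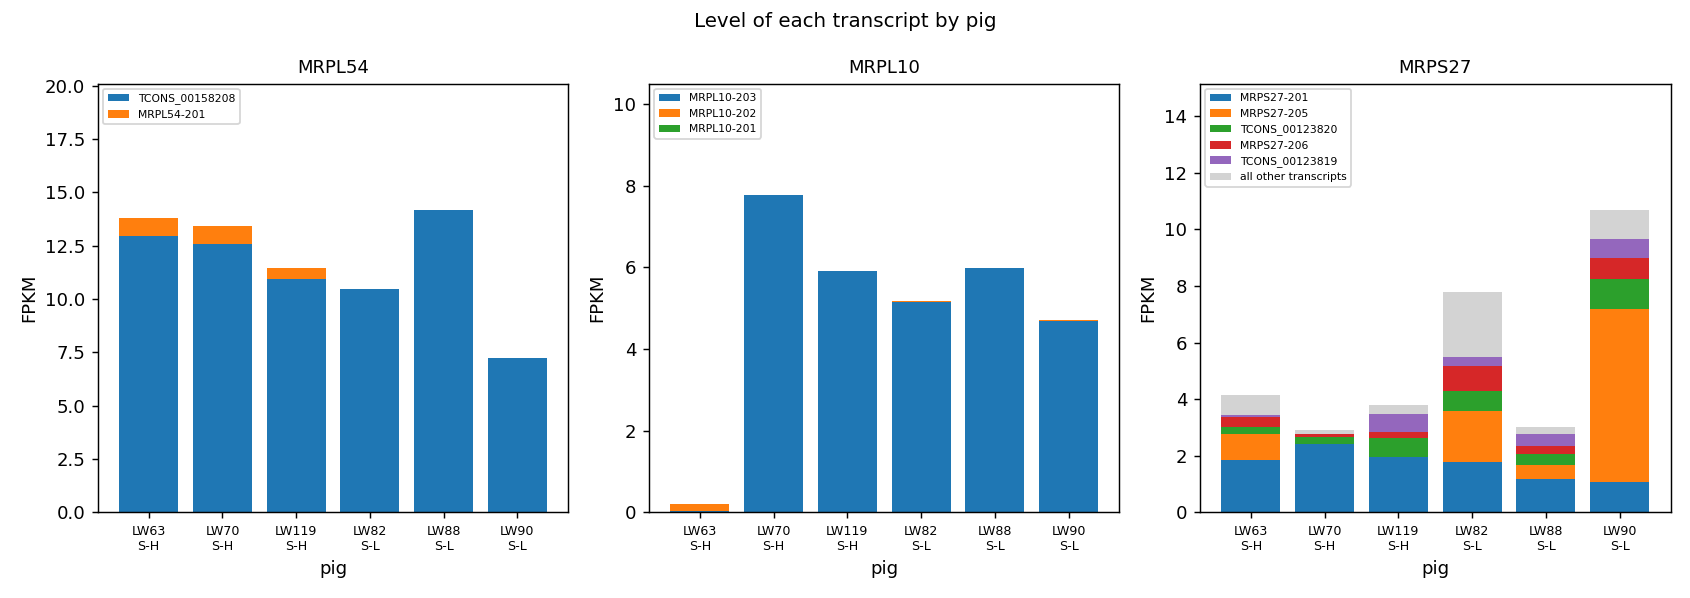
Level of each transcript, in FPKM, of MRPL54, MRPL10 and MRPS27 in each pig, stacked so that a bar is the level of the gene. MRPL54-201 is visible in the 3 S-H pigs only, MRPL10 is near 0 in LW63, and MRPS27-205 is largest in LW90.

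Other genes of mitochondrial translation were read from lists. Of all genes tested, 74.1% had a positive fold change, 50.9% with size factors, and 8.15% had an unadjusted p below 0.05 in limma. None of 5 further mitoribosomal proteins without an MRP symbol passed the thresholds in limma (1.36% of all genes) or reached an unadjusted p below 0.05, and 5 of 5 had a positive fold change, 2 of 5 with size factors. Among them AURKAIP1, which encodes mS38, was at 39.1 ± 7.71 FPKM in S-H and 30.0 ± 1.46 FPKM in S-L (SD, n = 3), and PTCD3, which encodes mS39, was at 19.2 ± 3.24 and 15.8 ± 1.15 FPKM. Of 18 translation factors 0 passed in limma, 0 had an unadjusted p below 0.05 and 15 were positive, 12 with size factors. The lowest p values were those of GFM2, a factor of ribosome recycling, and MTFMT, the formyltransferase of the initiator tRNA, with log2 fold changes of 0.55 (adjusted p = 0.619) and 0.57 (adjusted p = 0.627). Of 26 assembly factors 0 passed in limma and 2 had an unadjusted p below 0.05, near the 8.15% of all genes. Positive fold changes were found for 24 (74.1% of all genes), and with size factors for 13 (50.9%). The 2 with an unadjusted p below 0.05 in limma were LETMD1 and RPUSD3, a pseudouridine synthase. LETMD1 had a log2 fold change of 0.88 (SE 0.36, adjusted p = 0.607) and RPUSD3 one of 0.72 (SE 0.31, adjusted p = 0.608).

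Aminoacyl-tRNA synthetases of mitochondria, which charge tRNAs with amino acids, had 0 of 21 genes past the thresholds in limma and 19 of 21 positive fold changes, 18 with size factors. Groups without overlap were found for 7 of 21, all with every S-H pig above, where 13.1% of all genes had this. With size factors 1 of these 7, CARS2, was still without overlap, and TARS2 had every S-H pig below, so that 2 of 21 had no overlap in either direction, where 12.5% of all genes did. LARS2, the leucyl-tRNA synthetase, was at 5.32, 6.20 and 4.18 FPKM in S-H and at 3.93, 2.12 and 3.73 FPKM in S-L, with a log2 fold change of 0.70 (SE 0.31, adjusted p = 0.608). It was the only synthetase with an unadjusted p below 0.05. KARS1, which also serves the cytosol, was at 117, 133 and 108 FPKM in S-H and at 84.7, 93.7 and 78.4 FPKM in S-L. Its groups overlapped with size factors, and the log2 fold change of 0.48 was then 0.26. Of 15 genes of mitochondrial transcription and DNA maintenance 0 passed in limma, 0 had an unadjusted p below 0.05 and 12 were positive, 7 with size factors. HSD17B10, a subunit of mitochondrial RNase P, had a log2 fold change of 0.45 (adjusted p = 0.638) and TEFM, the elongation factor, one of 0.46 (adjusted p = 0.677).

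A call was made in the list of regulators of mitochondrial gene programmes, where 1 of 12 passed (1.36% of all genes). Of the 12, 5 were positive (74.1% of all genes), and 3 with size factors (50.9%). PPARGC1A, the coactivator of mitochondrial biogenesis, was at 10.01, 22.4 and 15.1 FPKM in S-H and at 25.5, 76.0 and 43.7 FPKM in S-L. Every S-H pig was below every S-L pig, as in 216 of the 12741 genes tested, although LW70 and LW82 were close. The log2 fold change was -1.54 (SE 0.41) at an unadjusted p of 0.00404 in limma, and its adjusted p over all genes was 0.540. The call was lost without LW63 (-1.25), LW88 (-1.15) or LW90 (-1.54), which each left the unadjusted p above 0.01. Its relative PPARGC1B was at 2.39 ± 0.333 FPKM in S-H and 1.43 ± 0.439 FPKM in S-L (SD, n = 3), a log2 fold change of 0.74 (adjusted p = 0.607).

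The messenger RNAs that the mitoribosome translates mostly had negative fold changes, none of which passed the test. Of 13 mitochondrially encoded messenger RNAs 0 passed in limma, 0 had an unadjusted p below 0.05, and 3 had a positive fold change, 1 with size factors, with a median of -0.27. ND2 was at 94.6, 133 and 122 FPKM in S-H and at 229, 175 and 130 FPKM in S-L, and ND1 at 86.8 ± 16.1 and 126 ± 33.96 FPKM (SD, n = 3). The groups overlapped in both genes as deposited, with adjusted p values of 0.615 and 0.627 in limma. As deposited, 1 of the 13 had no overlap, with every S-H pig below, against 14.8% of all genes in either direction. With size factors it was 4 of 13, each with every S-H pig below, against 12.5% of all genes in either direction. The summed level of the 13 was not lower in S-H, at 23517.5 ± 9438 FPKM against 22395 ± 2516 FPKM in S-L (SD, n = 3). This sum was highest in LW70 (33516 FPKM) and lowest in LW119 (14763 FPKM). LW70 was also the highest pig for the summed ribosomal proteins, and LW119 the lowest of S-H.

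Of the markers of other cell types, those of adipocytes had the most genes past the thresholds. Of 10 adipocyte markers 10 had a positive fold change (74.1% of all genes), and 9 with size factors (50.9%). In limma 5 passed the thresholds, where 1.36% of all genes did. Among them were PLIN1, the coat protein of lipid droplets, with a log2 fold change of 2.04 (SE 0.47), and LEP, which encodes leptin, with 1.79 (SE 0.43). The others were ADIPOQ, CIDEC and FABP4, and 2 of the 10 passed without LW63 and 2 without LW90. The summed adipocyte markers ranged from 524 to 1435 FPKM in S-H and from 362 to 473 FPKM in S-L. Of 6 endothelial markers 1 passed (1.36% of all genes), CLDN5 of tight junctions with a log2 fold change of 1.87 (SE 0.39). Their median log2 fold change was 0.17, and -0.050 with size factors, where 3 of the 6 were positive. Their sum ranged from 120 to 136 FPKM in S-H and from 73.0 to 110 FPKM in S-L. None of 9 muscle fibre, 6 fibroblast, 5 leukocyte and 3 erythrocyte markers tested passed in limma or had an unadjusted p below 0.05, and no marker list held a gene at 0 in all pigs. The highest adipocyte sum was in LW63, not in LW70, where the ribosomal proteins were highest. The part of these cells in the levels of the ribosomal proteins was not tested.

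**Figure D5:**
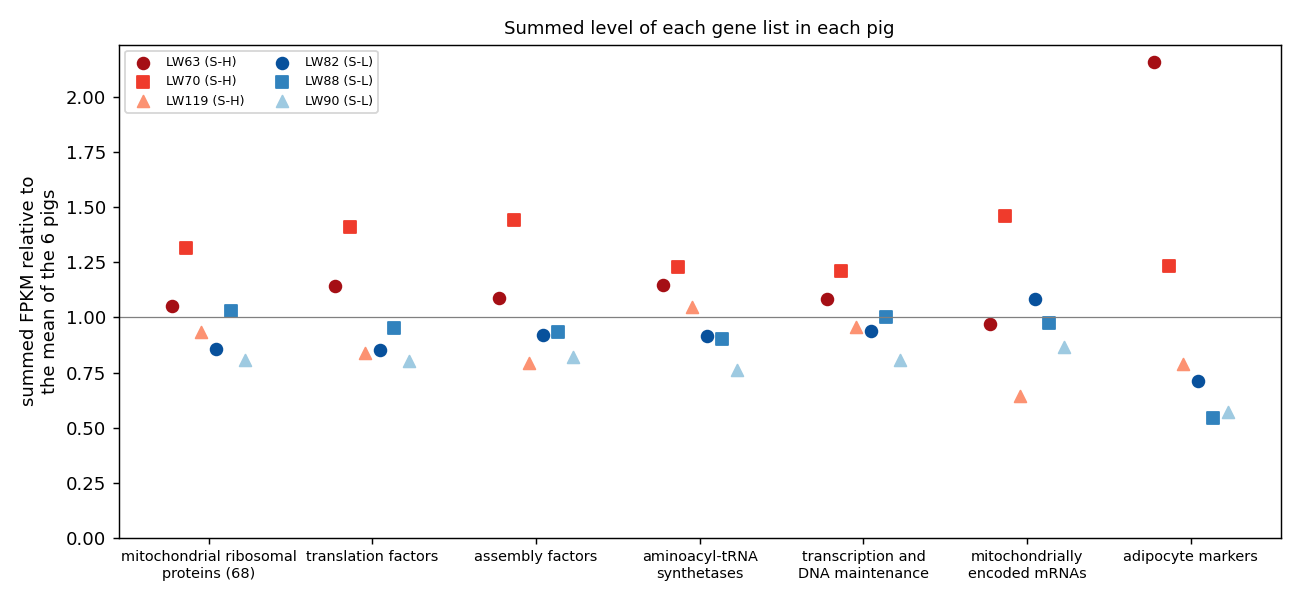
Summed FPKM of each gene list in each pig, divided by the mean of the 6 pigs, on a linear axis from 0. Red symbols are S-H pigs and blue symbols S-L pigs. LW70 is the highest pig for the ribosomal proteins, the translation and assembly factors, the synthetases, the transcription genes and the mitochondrially encoded messenger RNAs, whereas LW63 is the highest for the adipocyte markers.

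Some further genes of the family carry no symbol in the table and were matched by their identifier only, so they are not among the 68. MRPL30 was at 23.6 ± 0.773 FPKM in S-H and 20.6 ± 2.30 FPKM in S-L, MRPS6 at 12.7 ± 2.98 and 10.1 ± 2.81 FPKM, and MRPL34 at 50.6 ± 13.9 and 41.8 ± 4.19 FPKM (SD, n = 3). Their means were higher in S-H by less than the spread of the groups in MRPS6 and MRPL34. These values rest on a conversion from TPM, a unit inferred from the values of transcripts without a symbol.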

How the data were processed

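LD muscle RNA of 3 S-H and 3 S-L pigs was analysed, with 1 library per pig. The authors removed ribosomal RNA, aligned reads to Sscrofa11.1 with HISAT2 (version not given in the sources used here) and assembled and quantified transcripts with StringTie. The deposited values are FPKM of 83119 transcripts, except that 21104 Ensembl transcripts without a symbol were taken to be in TPM, from their values since no header states it, and were converted with 1 factor per pig computed from the table. No member was affected. The deposited table holds no read counts and the read totals of the libraries were not used here, so precision rests on the 3 pigs of each group. The summed FPKM of a library was between 638536 and 846661, and the 10 highest genes held 52.1% to 69.0% of it.

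Transcripts were summed per gene. Gene types were those of RefSeq on this assembly, found by symbol (13901 genes) or, failing that, by 50% reciprocal overlap (4666 genes). The 12740 protein-coding genes averaging 0.1 FPKM or more, and MRPS12, which that annotation types as non-coding, were tested with limma 3.58.1 in R 4.3.3 (variance trend, log2(FPKM + 0.1), no covariate, Benjamini-Hochberg adjustment). Transcripts were tested in the same way. The fit was tested on simulated data. Subunit, ancestry, place and gene lists were written from general knowledge. Tables were handled with Python 3.11.15 and pandas 2.3.3. Members and lists were chosen with earlier results of these data known. Named were the 6 members at either end of the level and of the fold change, the 6 with the lowest p, MRPL12, MRPL58, MRPS30, MRPS36 and the MRPS18 family, the transcripts past the thresholds, those of the 3 members whose leading transcript share moved most, 1 of which is not reported here, and in each list the called genes and the 2 with the lowest p.

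Other settings were pseudocounts of 0.01 and 1, the minimum dropped or raised to 1 FPKM, median-ratio size factors, TPM, the values exactly as deposited, limma without a trend, the transcript with the highest mean, reference transcripts alone, all annotated genes and each pig left out in turn. Sequences were not used here.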

Additional observations from a re-analysis of the deposited data

How the results depend on the processing

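No paired analysis was possible because S-H and S-L hold different animals whose labels carry no replicate numbers. In the settings other than leaving out a pig, between 44 and 65 of the 68 members were higher in S-H, the median log2 fold change lay between 0.043 (size factors) and 0.40 (TPM), and it was positive in each. Leaving out each pig in turn gave 48 to 64 members and medians of 0.15 to 0.39. The count of members at an unadjusted p below 0.05 in limma was 0 as reported. It was 3 of 68 with no minimum (7.8% of all genes) and 5 with TPM (11.6%). With the transcript of highest mean it was 2 (6.92%), and with reference transcripts alone 3 (7.85%). Without single pigs it was 0 to 8, where 4.14% to 9.46% of all genes reached it. The count past both thresholds was 1 with reference transcripts alone, where MRPL54 is represented by MRPL54-201 only (log2 fold change 2.91). It was 0 to 1 without single pigs, the 1 being MRPS27 (-1.33) without LW88. Of all genes, 1.33% passed with reference transcripts alone and 0.675% to 2.05% without single pigs. The 1 member transcript past the thresholds became 0 with a pseudocount of 1 and 0 with a mean of at least 1 FPKM, which removes MRPL54-201 from the test, and 1 to 3 without single pigs. Of 25 named members 16 kept their sign in every setting. The sign turned with size factors for MRPL57 (-0.045) and MRPL51 (-0.025). It turned with TPM for MRPS18A (0.039), MRPS18C (0.019), MRPL36 (0.074) and MRPS21 (0.073), and with the transcript of highest mean for MRPS18A (0.58), MRPS27 (0.61), MRPS18C (0.17) and MRPL36 (0.034). With reference transcripts alone it turned for MRPL36 (0.034). For the related lists, whose alternatives were chosen after seeing the data, the transcript of highest mean gave 0 calls instead of 1 in the mitochondrial lists and 3 instead of 5 among the adipocyte markers, and leaving out single pigs gave 0 to 1 and 2 to 7. Apart from what each setting removes, the cause was not tested. Without single pigs the log2 fold change ranged from -0.50 to 0.0068 for MRPL52, -2.01 to 0.36 for MRPL10, -0.38 to 0.14 for MRPS21, -0.084 to 0.48 for MRPL51, -0.38 to 0.39 for MRPS18A, -0.31 to 0.13 for MRPS18C and -0.30 to 0.20 for MRPL36. What counting error adds for members near 1 FPKM was not computed, since the table holds no read counts.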
